A study of Mus musculus with 18 samples.

Results

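The adipocyte minus stromal-vascular difference was compared between 2 white fat depots of the mouse. For each gene the interaction is (inguinal adipocyte minus inguinal SVF) minus (epididymal adipocyte minus epididymal SVF), on the log2 scale. A positive value means that the step from SVF to adipocyte was larger, or more positive, in inguinal fat, and a negative value that it was larger in epididymal fat. The SVF (stromal-vascular fraction) is the pellet left when fat is digested with collagenase and the floating adipocytes are taken off. It holds progenitors, endothelial and mural cells and leukocytes. The contrast rests on 12 of the 18 arrays, 3 in each of 4 groups, which were chosen by the depot and fraction given in the labels and not by any measured value. The labels call the 3 arrays of a group biological replicates and give no pairing. The labels give young adult male C57BL/6 mice for all arrays, and name no treatment of the animals. The other 6 arrays (brown fat) are not part of the contrast. They add to the estimate of the spread and enter the filter and choice of probes.

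Inguinal fat is a subcutaneous depot and epididymal fat a visceral one. Inguinal fat of the mouse is known for adipocytes that can take on a thermogenic, or beige, programme, whereas epididymal fat carries a mesothelial cover and does so less readily. The depots are also known to differ in developmental transcription factors, such as Hox and T-box genes. Depots can differ in their adipocytes, in their SVF, or in both, and the interaction isolates genes for which the depot difference is not the same in the 2 fractions.

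Array scans reached 75th percentile signals from 394 to 1259 on the 12 arrays, and 56.5 to 72.3% of spots were well above background, except 87.9% on epididymal adipocyte replicate 1. Adipoq, the adipocyte hormone adiponectin, separated the fractions as labelled, at 7.41 to 8.79 on the 6 adipocyte arrays and 0.65 to 4.41 on the 6 SVF arrays. Levels are log2 signal relative to the 75th percentile of the array. A pair of arrays stood apart. Inguinal SVF replicate 1 had Wt1, a mesothelial transcription factor, at 4.46 against -7.88 and -7.42 on the other inguinal SVF arrays. Its Ddx3y, a Y-linked gene, was at -6.50 and not well above background, although it ran from 0.18 to 1.55 on the other 11 arrays, which goes against the male label of that array. Epididymal adipocyte replicate 3 had the thermogenic genes Ucp1 at 4.51 and Cidea at 6.46, against -3.35 and -1.05, and 2.92 and 2.45, on replicates 1 and 2. Results are therefore given with all arrays and without these 2. Adipocyte arrays were read with an older version of the image software than SVF arrays, in both depots alike. Each slide with adipocyte arrays held 1 depot, so depot and slide cannot be told apart among adipocytes.

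Of 19211 genes tested, 15 differed between depots in their fraction difference at an adjusted p under 0.05 (limma, Benjamini-Hochberg over all genes), which is 0.0781% of those tested. Of these, 3 (0.0156%) were higher in inguinal fat and 12 (0.0625%) lower. Without the 2 arrays that stood apart, 8 genes (0.0416%) passed, 3 higher (0.0156%) and 5 lower (0.026%), and 7 genes passed in both fits. A fit on the 12 arrays of the contrast alone called 1 gene, on the lower side. At an unadjusted p under 0.05 there were 574 genes on the higher side (2.99%) and 1645 on the lower side (8.56%). The median interaction of all genes tested was -0.04, and 10041 genes lay below 0 against 9170 above it. In epididymal fat, deviations from the group means correlated over genes between same-numbered adipocyte and SVF arrays (0.42, 0.48 and 0.14). With the replicate number as a block in that depot 221 genes were called, 11 higher and 210 lower, all 15 among them. The count depended on single arrays. It was 636 without epididymal adipocyte replicate 2, 54 without epididymal SVF replicate 1, 32 without inguinal adipocyte replicate 3, 28 without inguinal SVF replicate 3 and 4 without epididymal SVF replicate 2. It fell to 7 without inguinal adipocyte replicate 1, to 7 without epididymal adipocyte replicate 1, and to 8 without epididymal SVF replicate 3 or epididymal adipocyte replicate 3.

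**Figure D1:**
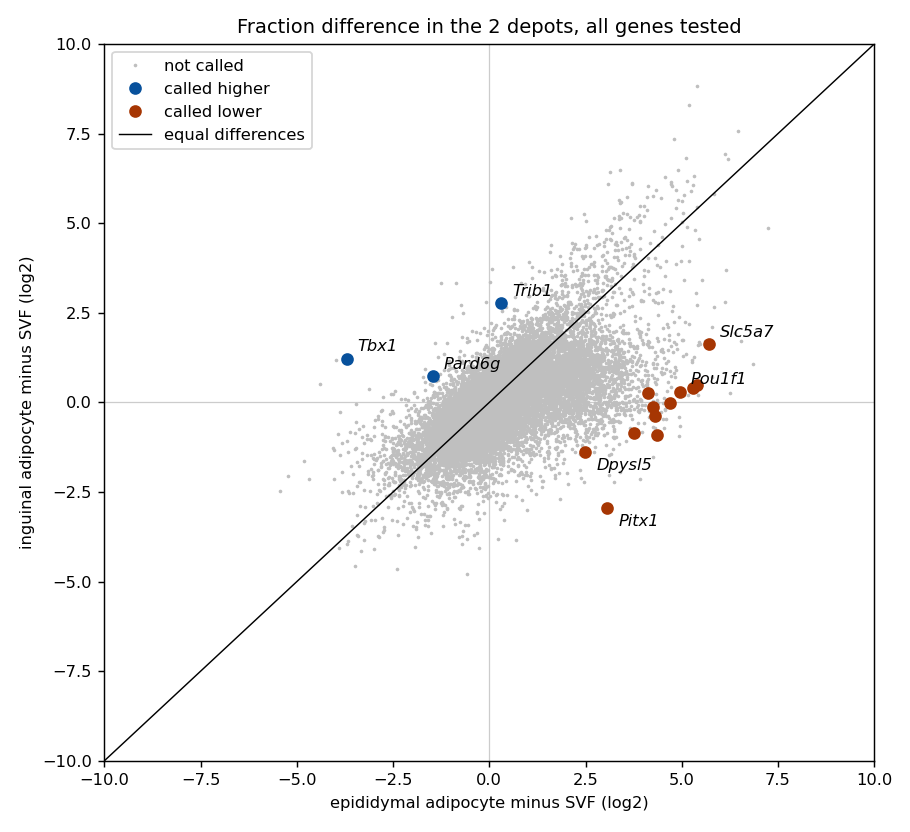
Fraction difference (adipocyte minus SVF, log2) of each of the 19211 genes in epididymal fat (horizontal axis) and inguinal fat (vertical axis), with the 3 genes called higher in blue and the 12 called lower in orange-brown. Genes on the line have equal differences in both depots, and the called genes lie off it, with Tbx1 at 1.22 in inguinal and -3.71 in epididymal fat and Pitx1 at -2.95 and 3.07.

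Tbx1 had the largest interaction among the genes called higher. It encodes a T-box transcription factor known for its part in the pharyngeal arches and the heart outflow tract, and it is used as a marker of beige adipocytes. The array cannot tell from which transcript start its RNA came. RefSeq (GRCm38.p6) gives a pair of starts on chromosome 16, minus strand, and both windows, from 250 bases before to 50 after the start, are shown because this is the gene on which the higher side of the contrast rests. Capitals mark GGGCGG, the core of a GC box, on either strand.
Tbx1, chr16:18588850-18589149: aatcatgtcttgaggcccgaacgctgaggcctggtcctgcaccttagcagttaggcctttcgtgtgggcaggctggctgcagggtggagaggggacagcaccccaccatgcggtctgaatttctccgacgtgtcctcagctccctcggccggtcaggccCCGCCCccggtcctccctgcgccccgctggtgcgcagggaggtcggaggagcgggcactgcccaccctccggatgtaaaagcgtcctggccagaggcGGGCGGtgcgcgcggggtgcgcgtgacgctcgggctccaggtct
Tbx1, chr16:18590622-18590921: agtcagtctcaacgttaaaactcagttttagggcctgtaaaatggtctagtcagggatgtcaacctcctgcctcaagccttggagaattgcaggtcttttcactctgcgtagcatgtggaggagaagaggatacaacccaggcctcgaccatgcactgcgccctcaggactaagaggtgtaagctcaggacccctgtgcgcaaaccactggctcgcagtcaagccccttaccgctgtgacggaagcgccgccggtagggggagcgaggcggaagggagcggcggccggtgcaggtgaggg
The first window holds 2 matches to GGGCGG and the second 0. Of all 32851 windows of this length in the table, 35.7% hold at least 1. Neither window holds TATAAA (13.6% of all windows), CCAAT (37.4%) or CACGTG (7.15%).

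Tbx1 levels were -2.16, -1.45 and -0.12 in inguinal SVF and -0.18, 0.25 and -0.15 in inguinal adipocytes. In epididymal SVF they were -0.49, 0.40 and 0.10, and in epididymal adipocytes -3.16, -3.88 and -4.08. Among the 12 arrays of the contrast, all 3 epididymal adipocyte arrays lay below every other, and the inguinal fractions overlapped. Brown adipocytes, outside the contrast, had a mean of -6.01, with no array well above background, against -1.95 in brown SVF. The interaction was 4.93 ± 0.65 (SE, 3 arrays a group, adjusted p = 0.00755, limma), and 4.28 without the 2 arrays (adjusted p = 0.04). It combines an inguinal fraction difference of 1.22 with an epididymal one of -3.71, a 13.1-fold lower level in epididymal adipocytes than in epididymal SVF. Between depots, adipocytes differed by 3.68 (inguinal higher) and SVF by -1.24. The call held in each of the 12 fits that left out 1 array and in 30 of 33 alternative settings. It was lost on the 12 arrays alone (adjusted p = 0.114, or 0.178 also without the 2 arrays) and without epididymal adipocyte replicates 1 and 3 (adjusted p = 0.128).

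Trib1 encodes a pseudokinase that brings the COP1 ubiquitin ligase to C/EBP transcription factors. Its levels were 1.84, 1.16 and 0.92 in inguinal SVF and 4.09, 4.15 and 3.98 in inguinal adipocytes. They were 1.03, 1.33 and 1.83 in epididymal SVF and 1.72, 1.39 and 2.02 in epididymal adipocytes. The inguinal adipocyte arrays lay above all others, and the 3 remaining groups overlapped. The interaction was 2.45 ± 0.41 (adjusted p = 0.0322, limma), and 2.87 without the 2 arrays (adjusted p = 0.0286). The fraction difference was 2.76 in inguinal fat, a 6.79-fold higher level in adipocytes, and 0.31 in epididymal fat. The direction was the same in all 34 alternative settings, but the call held in 16 of them and in 5 of 12 fits without 1 array. Among the 7 Tribbles, COP1, C/EBP and Akt genes tested, Trib1 was the 1 called. The others ran from -0.16 for Trib2 to 0.89 for Akt1, with a median over all 7 of 0.45.

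Pard6g, a PAR6 scaffold of the cell polarity complex, was the third gene called higher. It was at -1.14, -1.28 and -1.25 in inguinal SVF, -0.69, -0.61 and -0.17 in inguinal adipocytes, 0.10, 0.61 and 0.16 in epididymal SVF and -1.08, -0.98 and -1.50 in epididymal adipocytes. Epididymal SVF was the highest group and overlapped with no other, whereas inguinal SVF and epididymal adipocytes overlapped. Its interaction was 2.21 ± 0.38 (adjusted p = 0.0469, limma), and the call was lost without the 2 arrays (2.09, adjusted p = 0.185). The call held in 11 of 34 alternative settings and in 2 of 12 fits without 1 array. A second probe of Pard6g gave 1.84. In contrast to Trib1, its fraction differences had opposite signs, 0.73 in inguinal and -1.47 in epididymal fat.

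**Figure D2:**
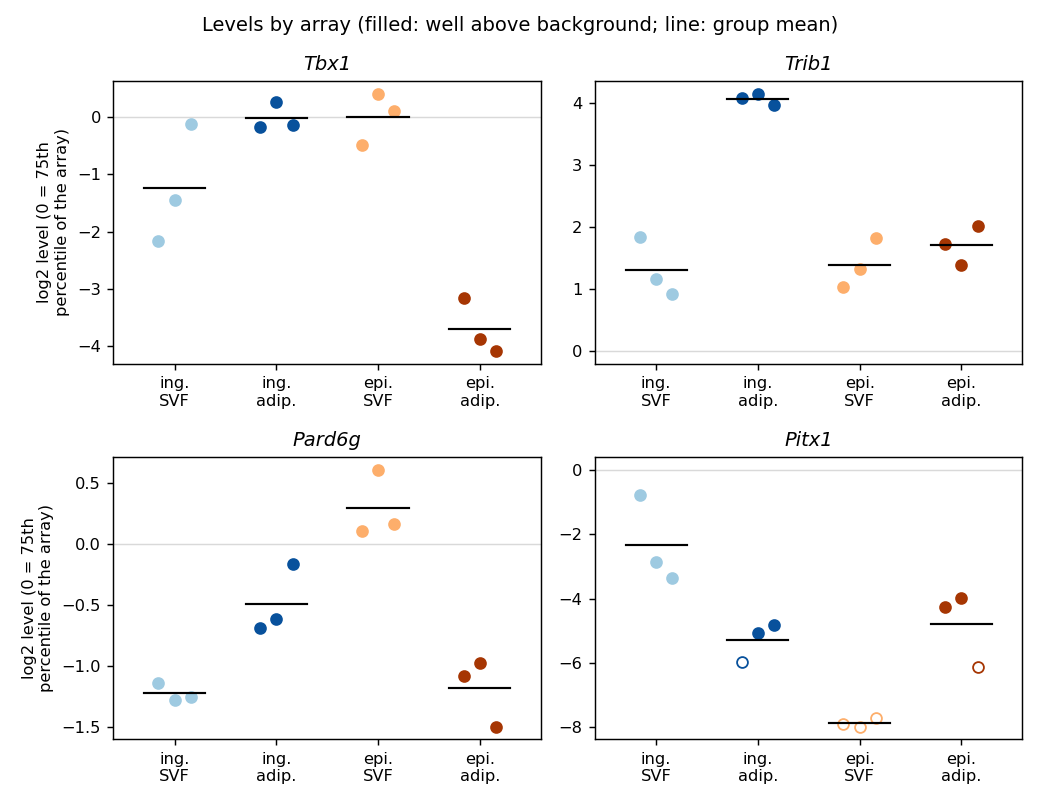
Levels by array (log2, 0 is the 75th percentile of the array) of the 3 genes called higher and of Pitx1, called lower, in the 4 groups (ing. inguinal, epi. epididymal, adip. adipocyte). Each point is an array, open where it was not well above background, and lines are group means. Tbx1 is low on the 3 epididymal adipocyte arrays, Trib1 is high on the 3 inguinal adipocyte arrays, and Pitx1 is not well above background on any epididymal SVF array.

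Pitx1, a homeodomain transcription factor known for hindlimb identity, was among the genes called lower. Its levels were -0.79, -2.88 and -3.35 in inguinal SVF and -5.98, -5.05 and -4.83 in inguinal adipocytes. They were -7.89, -7.97 and -7.70 in epididymal SVF, none well above background, and -4.26, -3.99 and -6.11 in epididymal adipocytes. The fitted interaction was -6.02 ± 0.90 (adjusted p = 0.0199, limma), and -5.90 without the 2 arrays (adjusted p = 0.00205). With epididymal SVF put at its background level, the interaction was -3.77. Dim single arrays of both adipocyte groups kept their own signals, so this is not a strict limit. The call held in 21 of 32 alternative settings and 8 of 12 fits without 1 array. Pitx1 was tested only because its probe was well above background on all 3 inguinal SVF arrays, so a high level there was a condition. As a description, inguinal SVF was at least 9.68-fold above epididymal SVF. Within the slide that held 2 SVF arrays of each depot it was at least 14.5-fold, and within the slide with 1 of each at least 4.31-fold. Adipocytes of both depots had 2 of 3 arrays well above background.

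The other 11 genes called lower were well above background on all 3 epididymal adipocyte arrays and on no epididymal SVF array. All 11 passed the filter on dim probes through epididymal adipocytes alone, of the 6 groups, so a high level there was a condition of being tested. Their interactions are fitted values that rest in part on signals below background, and their order is not measured. A value with wholly dim groups put at their background level was given for 3 of the 12 genes. It was -3.77 for Pitx1, -3.41 for Dpysl5 and -2.46 for Pigr. Dim arrays in groups with any array well above background kept their own signals, so these are not strict limits. Dpysl5 and Pigr each had 1 inguinal SVF array well above background. The smallest adjusted p belonged to Pou1f1, the pituitary POU transcription factor, on chromosome 16. Its first annotated window (GRCm38.p6, plus strand) is shown because Pou1f1 had the smallest adjusted p of the contrast, with TATAAA, the core of a TATA box, in capitals.
Pou1f1, chr16:65520262-65520561: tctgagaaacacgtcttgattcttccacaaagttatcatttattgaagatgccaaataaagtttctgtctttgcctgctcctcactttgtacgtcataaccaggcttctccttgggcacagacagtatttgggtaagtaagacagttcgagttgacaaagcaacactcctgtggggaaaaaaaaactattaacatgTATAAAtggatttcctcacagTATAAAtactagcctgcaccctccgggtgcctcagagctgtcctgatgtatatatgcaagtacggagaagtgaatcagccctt
This window holds 2 matches to TATAAA, which 13.6% of all windows hold, and the window of a second annotated start holds 0. Pou1f1 levels were -2.62, -2.96 and -3.17 in epididymal adipocytes and lay between -7.99 and -6.55 on the other 9 arrays, none of them well above background. Its fitted interaction was -4.66 ± 0.47 (adjusted p = 0.00111, limma), and -4.41 without the 2 arrays (adjusted p = 0.00205). Epididymal adipocytes were at least 6.47-fold above epididymal SVF and at least 5.92-fold above inguinal adipocytes. The call held in all 12 fits without 1 array and in 27 of 32 alternative settings. These fits reuse the same arrays, so they describe stability and are not separate support. Among the settings that lost the call was the one with dim signals raised to the background level, where no gene was called lower. The call was also lost in the deposited matrix, where the interaction was -0.90 (adjusted p = 0.203, limma), and with the repaired normexp background (-1.23, adjusted p = 0.483). The folds are lower bounds, taken against the lowest signal well above background on each array of the dim group, or the dim probe's own where that was higher.

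Sult1b1, a cytosolic sulfotransferase, was at -4.05, -4.84 and -3.20 in epididymal adipocytes and not well above background on the other 9 arrays (fitted interaction -4.62 ± 0.59, adjusted p = 0.00755, limma). Its second probe gave -1.92. Pou1f1, Sult1b1, Pitx1 and the transcripts AK039499 and AK034908 were the 5 genes called lower in both fits. Pigr, the receptor that carries polymeric immunoglobulins across epithelia, had a fitted interaction of -5.27, and Cst9, a cystatin, of -4.72. Slc5a7, the high-affinity choline transporter of cholinergic neurons, had -4.07. Dpysl5, a neuronal collapsin response mediator, had -3.87, and a second, unkept probe of it gave -0.53. The remaining 3 were AK084033, NAP057956-1 and 2610027F03Rik, at -4.90, -4.36 and -3.87. Apart from Pitx1 and AK039499, the genes called lower and Hpca below were named after their values were seen.

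**Figure D3:**
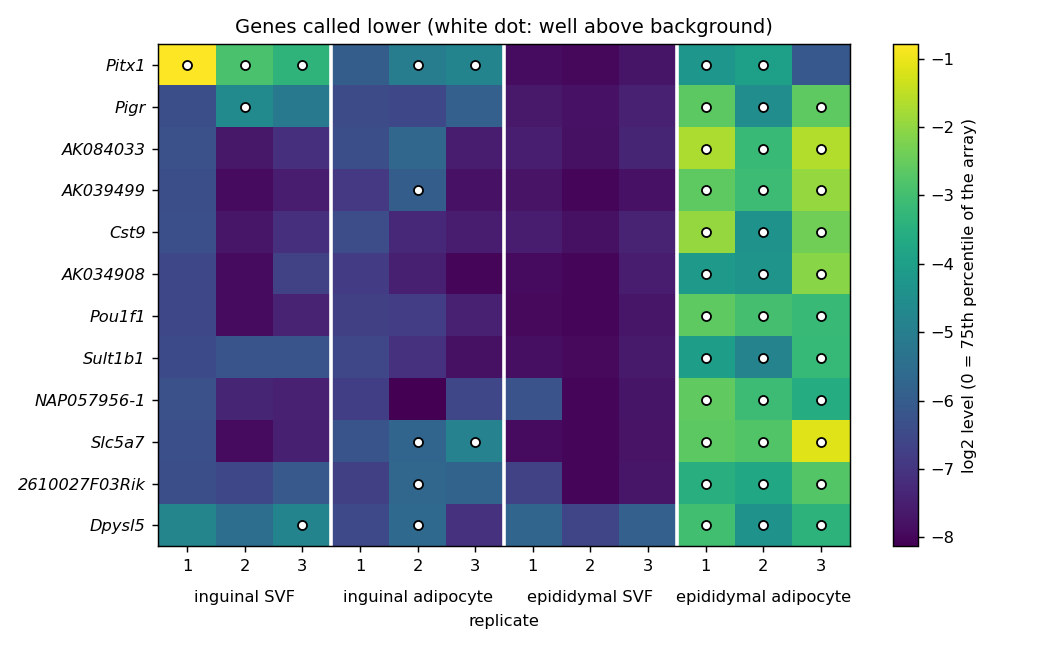
Levels (colour, log2 relative to the 75th percentile of the array) of the 12 genes called lower on the 12 arrays, by group and replicate. A white dot marks an array on which the gene was well above background. Apart from Pitx1, each gene has dots on all 3 epididymal adipocyte arrays, and no gene has one on an epididymal SVF array.

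The dim end of the arrays was higher on epididymal adipocyte replicates 1 and 3 than on the others. The 10th percentile of log2 levels was -3.65 and -3.91 on epididymal adipocyte replicates 1 and 3, and -4.59 on replicate 2, against -5.48 to -4.58 on the other 9 arrays. A total of 57 genes were well above background on all 3 epididymal adipocyte arrays and on none of the other 9. The same count was 0 for inguinal adipocytes, 11 for epididymal SVF and 1 for inguinal SVF. None of the 12 genes called lower was well above background on all 12 arrays. All 3 called higher were, as were 14050 of the 19211 genes tested. With dim signals raised to the background level of each array 1 gene was called, Tbx1, and none lower. Without epididymal adipocyte replicates 1 and 3 limma called 0 genes, with 719 at an unadjusted p under 0.05. The part of the dim end in these calls was not tested beyond those fits. Hpca, a neuronal calcium sensor, was the 1 gene called without the 2 arrays alone (4.07, adjusted p = 0.00862, against 3.03 and 0.165 with all arrays). It was tested only because it was well above background on all 3 epididymal SVF arrays, at -0.56, -1.02 and -0.66. A high level there was thus a condition. Inguinal SVF and epididymal adipocytes had 1 array each well above background and inguinal adipocytes 0. Its interactions are therefore fitted values that rest in part on signals below background.

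Among genes well above background on all 12 arrays none was called lower, and the 10 with the smallest p had adjusted p values of 0.113 to 0.165. They were Slc9b2, Bcorl1, Phf8, Ibtk, Aldh8a1, Ldb3, Traip, Pcbd1, Map7 and Fgfr4. A second probe of Bcorl1 gave 0.24, against -2.85 for the one used. Slc9b2, a sodium and proton exchanger, was at -0.02, 0.08 and 0.46 in epididymal adipocytes and -3.70, -3.20 and -3.35 in epididymal SVF, with an interaction of -3.79 ± 0.79 (adjusted p = 0.113, limma). Pcbd1, a pterin dehydratase that also binds HNF1, was at 1.11, 1.10 and 2.20 in epididymal adipocytes and no higher than -0.94 on the other 9 arrays (interaction -2.67, adjusted p = 0.16). Fgfr4, a fibroblast growth factor receptor, had -2.37 (adjusted p = 0.165), and its other probes -0.69 and -1.37.

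Adipocyte gene lists leaned to the inguinal side of the interaction without a called gene. With 0.0781% of all genes called, no call in lists of this size says little about them. In bulk fractions, fewer cells of a type and less RNA per cell cannot be told apart. Of 20 mature adipocyte genes 19 had a positive interaction, none was called, and the median was 1.07, against -0.04 over all genes tested. Gpd1, glycerol-3-phosphate dehydrogenase, was at 3.02 ± 1.03 (adjusted p = 0.303, limma), Adipoq at 1.58, Pparg, the adipogenic nuclear receptor, at 0.95 and Lep, leptin, at 0.79. A positive interaction does not mean a higher level in inguinal adipocytes. Inguinal minus epididymal adipocytes gave 1.83 for Gpd1, -0.13 for Adipoq, 0.24 for Pparg and -1.96 for Lep. The same difference in SVF was -1.19, -1.70, -0.72 and -2.75. Lep was well above background on 1 of 3 inguinal SVF arrays. The summed linear level of this list ran from 381 to 777 in inguinal SVF and from 510 to 815 in epididymal SVF, and from 2333 to 5699 and 2945 to 3881 in the corresponding adipocytes. Both pairs of groups overlapped.

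Of 20 thermogenic genes 19 were positive, 0 were called and the median was 1.46, or 2.19 without the 2 arrays. Cidea, a lipid droplet protein of brown and beige fat, was at 3.41 ± 1.42 (adjusted p = 0.387, limma). Its levels were 7.46, 7.15 and 7.84 in inguinal adipocytes against 2.92, 2.45 and 6.46 in epididymal ones. Ucp1, the mitochondrial uncoupling protein, was at 1.99, 2.18 and 4.34 in inguinal adipocytes and at -3.35, -1.05 and 4.51 in epididymal adipocytes, so the groups overlapped through epididymal replicate 3 (interaction 3.09 ± 2.20, adjusted p = 0.619, limma). Its interaction was 5.05 without the 2 arrays and ran from 1.40 to 5.33 without single arrays. These are fitted values that rest in part on dim signals. In each of the SVF groups, Ucp1 was well above background on 1 of 3 arrays. Ppargc1a, a coactivator of mitochondrial genes, was at 1.18, and its second probe at -0.33. The summed level of the list was 216 to 445 in inguinal adipocytes, and 25.1, 31.3 and 177 in epididymal adipocytes. Beyond Tbx1, the beige list had no called gene among its 7 tested, with Slc36a2, an amino acid transporter, at 1.08 and Tmem26, a surface protein, at -1.35. Of the 7 beige genes, 4 were positive and 3 negative. The beige median was 0.23, or -0.85 without the 2 arrays, and its sign changed in 10 of 34 alternative settings.

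Fuel metabolism followed the same side. All 17 fatty acid oxidation genes, all 14 citrate cycle genes and all 32 respiratory chain genes had positive interactions, with medians of 1.04, 0.85 and 0.63 and no called gene. At an unadjusted p under 0.05 there were 7, 5 and 4 genes on the higher side and none on the lower, where all genes tested had 2.99% and 8.56%. Ndufv2, a complex I subunit, had levels of 3.31 to 3.97 in inguinal adipocytes and 2.43 to 2.75 in epididymal adipocytes, and 1.29 to 1.91 against 1.96 to 2.17 in SVF (interaction 1.35 ± 0.41, adjusted p = 0.239, limma). Idh3b of the citrate cycle was at 1.54, and Acadvl, a very long chain acyl-CoA dehydrogenase, at 1.53. Lipogenesis had 16 of 17 positive (median 1.15), with Elovl6, a fatty acid elongase, at 2.67 (adjusted p = 0.267) and Fasn, fatty acid synthase, at 2.24. Lipolysis had 12 of 14 positive (median 0.70), with Abhd5, the coactivator of adipose triglyceride lipase, at 1.98 (1.21 for a second probe). Sfrp5, a secreted Wnt inhibitor among the adipokines, went the other way at -2.53 ± 0.79 (adjusted p = 0.259, limma). Scaling arrays by their median moved the median of all genes to 0.47, so that the size of these shifts is relative to the scaling used. Medians of the mature adipocyte, thermogenic, lipogenesis, lipolysis, fatty acid oxidation, citrate cycle and respiratory chain lists were above 0 in all 34 alternative settings. They reached down to 0.50, 0.29, 0.55, 0.38, 0.54, 0.52 and 0.34.

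**Figure D4:**
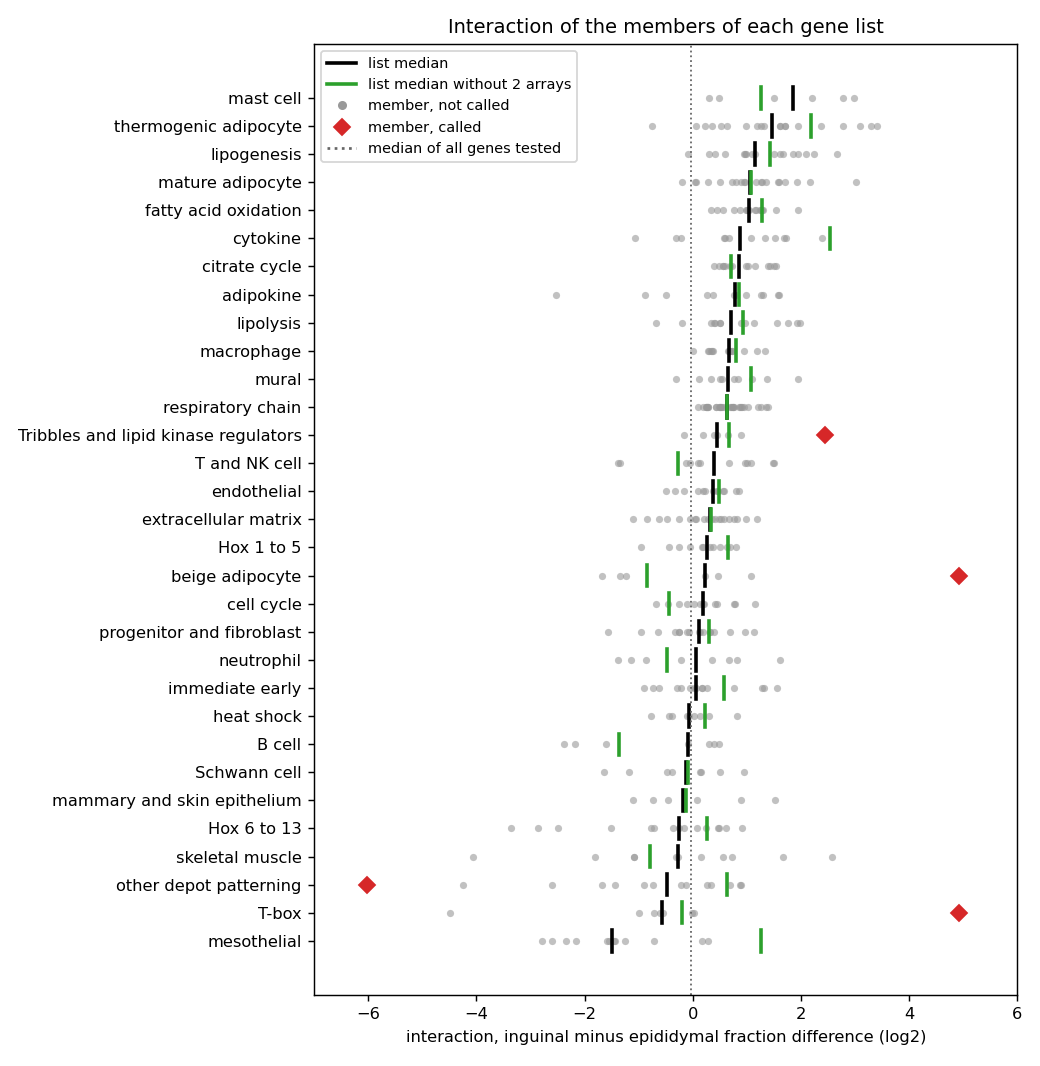
Interaction (log2) of every tested member of each gene list, with the list median from all arrays in black and without the 2 arrays in green. Red diamonds are called genes, and the dotted line is the median of all genes tested. Medians of the metabolic and mature adipocyte lists lie right of the line, and the mesothelial median turns from -1.50 to 1.25 without the 2 arrays.

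Of 14 depot patterning genes tested, Pitx1 was the 1 called, and 6 were well above background on all 12 arrays. Tbx15, a T-box gene of subcutaneous fat, was not well above background on any epididymal SVF array and reached 1.30 in inguinal SVF, with a fitted interaction of -0.99 ± 1.45, or -3.08 without the 2 arrays. Zic1 was at -2.61 and Shox2 at -1.68 (-2.57 without the 2 arrays), both uncalled. Among the T-box genes the interaction of Tbx20 was -4.49 ± 1.04, not called (adjusted p = 0.155, limma), and the other 6 of 8 tested besides Tbx1 lay between -0.99 and 0.02. In the posterior Hox list 0 of 15 were called. Hoxb9 was at 0.75, 0.08 and 2.54 in epididymal adipocytes and at -3.32 to -1.50 on the other 9 arrays (interaction -3.35 ± 0.94, adjusted p = 0.213, limma), but a second probe gave -0.0862. Hoxc10 was at -2.49, Hoxa10 at -2.87 and Hoxc9 at 0.47. The anterior Hox list (12 tested) had a median of 0.25, and the medians of both Hox lists changed sign in some settings.

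Markers of the other cell types gave no called gene, against 0.0781% of all genes. All 15 macrophage genes were positive (median 0.66), with Adgre1, a macrophage surface receptor, at 1.18 (1.82 for a second probe) and Cd163, a scavenger receptor, at 1.33. Their summed level was 51.7 to 347 in inguinal and 111 to 258 in epididymal adipocytes, and 175 to 306 and 230 to 487 in SVF. All 6 mast cell genes tested were positive (median 1.86, and 1.27 without the 2 arrays), with Cpa3, a mast cell carboxypeptidase, at 2.97 (1.88 without the 2 arrays) and the chymase Cma1 at 2.78. Their summed level in adipocytes was 2.85 to 9.70 in inguinal and 1.89 to 2.36 in epididymal fat, which did not overlap. Endothelial genes had a median of 0.38 with Pecam1 at 0.58 (0.0165 for a second probe), and mural genes 0.65, with Cspg4, the NG2 proteoglycan of pericytes, at 1.94 ± 0.48 (adjusted p = 0.165, limma) and its other probes at 1.00 and -0.25. Progenitor and fibroblast genes had a median of 0.12, with Pdgfra at -0.07 (0.30 for a second probe). Of 11 muscle genes, Acta1, skeletal actin, was at -4.07 and Actn3 at 2.58. The mesothelial list, whose summed level was 199 on inguinal SVF replicate 1 and 7.97 and 10.1 on the other inguinal SVF arrays, had 10 of 12 genes negative (median -1.50), and its median was 1.25 without the 2 arrays. Wt1 was at -1.45 ± 2.99 with all arrays and 2.65 without the 2. None of the 8 epididymal epithelium genes passed the background filter, so that none was tested. The part of these cell types in the called genes was not tested.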

How the data were processed

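RNA of adipocyte and stromal-vascular fractions was measured on 18 one-colour Agilent arrays. The deposited files hold each spot's processed signal, an intensity that the authors' Feature Extraction software corrected for background, per the file headers. The deposited value matrix holds log2 values whose normalization is not given in the sources used here, and served as an alternative. Control and flagged spots were left out, spots of a probe averaged, and log2 signal taken minus log2 of the array's 75th percentile. Probes well above background on all 3 arrays of a group were kept (28588), and a gene is its brightest kept probe.

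Tests used limma 3.58.1 in R 4.3.3 (a mean per group, eBayes, two-sided, adjusted over all 19211 genes, threshold 0.05), with 12 residual and 2.98 prior degrees of freedom. The fit was tested on simulated data with known changed genes and independent noise. That simulation held no outlying arrays and no background level, so it checks the computation only. The precision is limited by 3 arrays a group. Fraction and depot differences are parts of the interaction and were not tested on their own. Gene lists are described by counts and medians. The contrast, lists and tests were chosen with earlier results of these data known. Named genes are, per direction, up to 10 called genes well above background on all 12 arrays (or the 10 with the smallest p), up to 5 below background in 1 or 2 groups and called in both fits, up to 4 called members of each list or else 2 with the largest interaction, and a set of followed genes that includes Tbx1, Trib1, Ucp1, Lep, Wt1 and Hoxc10. Promoter windows come from a RefSeq table (GRCm38.p6), which holds 8 of the 15 called genes by symbol. Mean spot signals were used in no array, since only some of the files hold them, and the normexp alternative took the median spot signal instead. Other alternatives were other scalings, filters, weights, blocks and arrays left out.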

Additional observations from a re-analysis of the deposited data

Results flagged for a closer look

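All 15 called genes are results in which the fraction difference differed between depots by a test of the difference itself (limma interaction, adjusted p under 0.05). Genes on the lower side passed the filter on dim probes through 1 group each. It was inguinal SVF for Pitx1 and epididymal adipocytes for the other 11, so a high level there was a condition. With dim signals raised to the background level of each array, Tbx1 alone was called. The 3 on the inguinal side were Tbx1 at 4.93, Trib1 at 2.45 and Pard6g at 2.21. On the epididymal side, where values are fitted and rest in part on signals below background, were Pitx1 at -6.02, Pigr at -5.27, AK084033 at -4.90, AK039499 at -4.90, Cst9 at -4.72, AK034908 at -4.69, Pou1f1 at -4.66, Sult1b1 at -4.62, NAP057956-1 at -4.36, Slc5a7 at -4.07, 2610027F03Rik at -3.87 and Dpysl5 at -3.87.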

How the results depend on the processing

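All values are genes called of those tested, as higher and lower in inguinal fat, against 15 (3 and 12). Scaling gave 18 (13 and 5) by quantiles and 23 (10 and 13) by medians. The deposited matrix gave 15 (12 and 3), of which 2 were shared. The normexp background gave 2 (1 and 1); it failed on 4 inguinal arrays, where spots with very bright local background raised the 10th percentile of corrected signal to 464 to 864, against 59.4 to 79.3 elsewhere. Replacing such backgrounds, chosen after seeing the data, gave 7 (5 and 2), with 2 shared. Without a filter on dim probes there were 16 (1 and 15), with probes above background on all 18 arrays 0 (0 and 0; limma, 1011 at an unadjusted p under 0.05), and with dim signals at the floor 1 (1 and 0). The 12 arrays alone gave 1 (0 and 1), trend and robust options 7 (2 and 5), and array weights 318 (36 and 282). Without both arrays that stood apart there were 8 (3 and 5). Leaving out single arrays gave 4 to 636 calls, 1 to 18 higher and 3 to 618 lower. Also chosen after seeing the data were the 12 arrays without both (3; 0 and 3), genes above background on all 12 (1; 1 and 0) and no epididymal adipocyte replicates 1 and 3 (0; 0 and 0), where the 1 array left is assumed to vary like the other groups. Averaging probes, array names and random blocks for slide and scan day gave 15, 15, 15 and 16 calls, with 14, 15, 14 and 15 of the 15 genes among them. A fixed slide or scan day block could not be fitted, since it leaves the interaction without an estimate.

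With the replicate number as a block there were 25 calls (2 and 23), within depot 211 (9 and 202), and within epididymal fat alone, chosen after seeing the data, 221 (11 and 210). The labels give no pairing. Deviations from the group means were correlated over genes. Same-numbered adipocyte and SVF arrays gave -0.14, 0.05 and -0.23 in inguinal fat. They gave 0.42, 0.48 and 0.14 in epididymal fat, where each array correlated best with its own number. Inguinal arrays of unlike number reached 0.26. Deviations cancel within a group, so these values are not independent. The same-numbered correlations in inguinal fat did not pass 0.1, so the numbers were not used as pairs over both depots.

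No called gene changed direction in any setting. Uncalled genes that did were Pdgfra (0.44 median scaling, 0.24 normexp, 0.0386 repaired normexp, 0.11 probe mean, 0.32 without both arrays and on the 12 arrays without both, -0.81 to 0.61 without single arrays), Lep (-2.70 normexp, -1.15 repaired, -0.98 matrix, -0.63 floor, -0.27 weights), Wt1 (0.90 normexp, 0.39 weights, 2.65 without both, -3.58 to 2.59 without single arrays), Tcf21 (1.92 normexp, 1.12 repaired, 0.71 matrix, 0.28 floor, 1.54 without both, -2.40 to 1.25 without single arrays), Tbx15 (0.15 quantile, 0.40 matrix, -2.69 to 0.54 without single arrays), Bnc1 (0.22 without both, -4.11 to 0.14 without single arrays), Epcam (0.11 quantile, -1.82 to 0.18 without single arrays, 0.040 without epididymal adipocyte replicates 1 and 3), Trp63 (-0.37 normexp), Klrb1c (-0.026 probe mean), Col14a1 (-1.85 to 0.11 without single arrays), Pecam1 (-0.10) and Hoxc4 (0.86), the last 2 without epididymal adipocyte replicates 1 and 3. The cause was not tested.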

Other observations

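Other gene groups gave no called gene either, against 0.0781% of all genes. B cell genes had a median interaction of -0.08 (7 tested), or -1.37 without the 2 arrays that stood apart. Their summed linear level spread widely within a group, from 12.4 to 343 in inguinal SVF. T and NK cell genes had a median of 0.40 (12 tested), or -0.28 without the 2 arrays. Neutrophil genes had 0.06, with S100a9, a calprotectin subunit, at 1.61 (0.97 without the 2 arrays) and Mmp8, a collagenase, at -1.38 (-2.26). Matrix genes had 0.32, with Mmp2, a gelatinase, at 1.19.

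Cytokine genes had a median of 0.87 (12 tested), or 2.54 without the 2 arrays. Ccl2, a monocyte chemokine, was at 4.71, 4.70 and 1.52 in inguinal adipocytes and 0.85, 0.90 and 3.19 in epididymal adipocytes, and these groups overlapped (interaction 2.38 ± 1.60, adjusted p = 0.594, limma, and 4.49 without the 2 arrays). Cxcl10, an interferon-induced chemokine, was at 2.92, 3.82 and 3.40 in inguinal adipocytes and 0.67, 0.01 and 1.22 in epididymal adipocytes, without overlap, and at 3.50, -1.01 and 0.68 in inguinal SVF (interaction 1.73 ± 1.46, adjusted p = 0.693, limma, and 3.24 without the 2 arrays). Immediate early genes had a median of 0.06, with Egr2 at 1.55 and Atf3, a stress-induced factor, at 1.32 (2.20 without the 2 arrays). Cell cycle genes had 0.19 with Cdk1 at 1.15, heat shock genes -0.06 with Dnaja1, a cochaperone, at 0.81 (0.32 and -0.22 for its other probes), and Schwann cell genes -0.13. Of the lists named here, the cytokine median alone kept its sign in all 34 alternative settings.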
